A study of Mus musculus with 24 samples.

Results

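Metallothioneins and zinc transporters set how much zinc a cell holds and where it sits, and 8 of their genes were followed in resting and lipopolysaccharide (LPS)-stimulated mouse macrophages. Mt1 and Mt2 encode metallothioneins, small cysteine-rich proteins that bind zinc and copper. Mtf1 encodes the zinc-sensing transcription factor that binds metal response elements in DNA. Slc30a1 encodes ZnT1, which exports zinc across the plasma membrane, and Slc39a1, Slc39a6, Slc39a10 and Slc39a14 encode zinc importers of the ZIP family. The 8 genes were taken by symbol from the 22165 genes of the counts table, and each one was among the 11878 genes abundant enough to test. They were selected on values measured in these libraries, their differences between the treatment and genotype groups, so their values are a description, and the threshold used with them (a Benjamini-Hochberg adjusted p of 0.05 over all tested genes, from edgeR's quasi-likelihood fit) only sorts the differences by size and spread.

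Macrophages are known to redistribute zinc when they meet bacteria, and their metallothioneins and transporters move it between the cytosol, vesicles and the outside. MTF1 raises the transcription of Mt1, Mt2 and Slc30a1 when free zinc is high, and metallothionein genes also respond to glucocorticoids, oxidative stress and cytokines. ZIP14, the product of Slc39a14, also carries iron and is known as a transporter raised in inflammation.

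Bone marrow-derived macrophages (BMDMs) came from wild-type (WT) and Irg1-/- mice, the latter lacking the mitochondrial enzyme that makes itaconate in activated macrophages, and 3 independent cultures per group gave 24 libraries in 8 groups. Marrow of mice aged 8 to 20 weeks was grown for 7 days with 20 ng/ml M-CSF, the growth factor that makes macrophages. In each genotype, cells were left unstimulated (Unstim.), received 100 ng/ml LPS for 24 h (LPS 24h), received LPS for 24 h, rested for 1 h in fresh medium and received LPS again for 3 h (tolerized, LPS 24h->LPS 3h), or went through that last procedure without the first dose (LPS 3h). All mice were C57BL/6N, WT animals were bought in, and the sources used here do not say that the genotypes were littermates, so deletion and breeding history cannot be told apart. Both treatments that ended with 3 h of LPS included the 1 h rest in fresh medium, and no group had that rest without LPS. Where they are set against Unstim. or LPS 24h cells, the LPS dose and the change of medium cannot be told apart. Below, the second dose stands for the whole step from LPS 24h, rest and fresh medium included. Transcripts were captured by their poly(A) tail and read near the 3' end.

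The libraries held 3927378 to 20430359 reads on genes (median 11539056). Values below are normalised CPM, that is, reads on a gene scaled to the library size multiplied by edgeR's TMM factor for that library. The factor moved with treatment. It was 1.27 to 1.36 in Unstim. libraries, 0.67 to 0.73 in LPS 3h libraries and 0.90 to 1.17 in the others. Small differences between Unstim. and LPS 3h cells depend on this scaling, and levels without the factor were not tested. Any difference in level here may come from less RNA per cell or from fewer cells making it, which cannot be told apart in bulk samples. Acod1, the gene deleted in Irg1-/- mice, stood at 3794 to 28060 CPM in the WT libraries that received LPS, at 1.58 to 26.4 CPM in the corresponding Irg1-/- libraries and at 5.82 to 11.9 CPM in Unstim. libraries, so each library given LPS matched its genotype label, while Acod1 does not tell the Unstim. genotypes apart. All 7 macrophage markers were present in every library, with summed levels of 3080 to 9790 CPM. The lowest sum belonged to WT LPS 24h replicate 3, which stood apart from the other WT LPS 24h cultures for several genes below. The 6 neutrophil markers summed to 384 to 670 CPM in the Unstim. and LPS 3h groups against 64.7 to 230 CPM in the groups given LPS for 24 h, with Ly6g between 0 and 1.66 CPM, and the 4 fibroblast markers summed to 250 to 392 against 61.5 to 210 CPM. Those lists moved with the 24 h treatment, and their part in the results was not tested. T cell, B cell, dendritic cell and mast cell or basophil lists stayed at or below 11.3 CPM. The library labels carry 1 of 4 prefixes, whose meaning the sources used here do not state, and libraries that share a prefix are called a pool here. All Unstim. libraries were in pool 4, the WT LPS libraries were spread over pools 1, 2 and 4, and the Irg1-/- LPS libraries were in pools 1, 2 and 3. Pool and treatment therefore cannot be told apart where Irg1-/- LPS groups are set against Irg1-/- Unstim. cells, or Irg1-/- LPS 24h against Irg1-/- LPS 3h. Within-pool differences are given for some, not all, of the comparisons in which a pool held both groups.

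Mt1 (ENSMUSG00000031765.7) and Mt2 (ENSMUSG00000031762.6) are neighbours on the plus strand of chromosome 8 in GRCm38, with Mt2 at 94172664 to 94173568 and Mt1 at 94179082 to 94180327, a gap of 5513 bases. The windows around their starts are shown because both genes moved together with treatment and because metallothionein promoters are the textbook place for metal response elements. Each window is the RefSeq sequence (GRCm38.p6) from 250 bases before to 50 bases after the start annotated in RefSeq. That start can differ from the gene limits above, which are from GENCODE. Slc30a1 is printed beside them as the transporter known to be under the same factor. Capitals mark TGCGCNC or TGCACNC, the core of the metal response element, on either strand.

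Mt1 (chr8:94178839-94179138, plus strand): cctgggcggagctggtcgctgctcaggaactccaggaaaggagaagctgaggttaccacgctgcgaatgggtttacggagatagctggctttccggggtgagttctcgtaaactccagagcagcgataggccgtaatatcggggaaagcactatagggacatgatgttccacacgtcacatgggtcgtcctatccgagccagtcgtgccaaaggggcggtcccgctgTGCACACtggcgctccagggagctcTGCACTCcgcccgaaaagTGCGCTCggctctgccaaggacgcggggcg
Mt2 (chr8:94172368-94172667, plus strand): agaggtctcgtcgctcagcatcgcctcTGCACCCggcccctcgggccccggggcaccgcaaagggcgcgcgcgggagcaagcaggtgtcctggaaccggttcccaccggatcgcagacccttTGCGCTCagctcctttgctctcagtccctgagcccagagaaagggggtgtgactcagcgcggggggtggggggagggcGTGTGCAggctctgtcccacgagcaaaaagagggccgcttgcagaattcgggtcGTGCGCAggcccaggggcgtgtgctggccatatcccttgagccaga
Slc30a1 (chr1:191906531-191906830, plus strand): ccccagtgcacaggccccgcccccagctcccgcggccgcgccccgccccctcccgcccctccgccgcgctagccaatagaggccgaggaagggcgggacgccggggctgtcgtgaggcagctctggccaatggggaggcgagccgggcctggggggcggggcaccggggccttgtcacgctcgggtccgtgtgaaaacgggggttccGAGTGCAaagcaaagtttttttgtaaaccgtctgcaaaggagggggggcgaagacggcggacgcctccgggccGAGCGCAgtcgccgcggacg

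The Mt1 window held 3 matches, the Mt2 window 4 and the Slc30a1 window 2, with no match overlapping another. Counted from the RefSeq start, they began at -23, 3 and 21 in Mt1 and at -223, -128, -50 and 5 in Mt2. In Slc30a1 they began at -43 and 31, so each window held matches on both sides of its RefSeq start. The GENCODE start of Mt2, 94172664, lies further on, and all 4 Mt2 matches come before it. Of 32817 such windows in the table, 25.7% held at least 1 match, 7.12% at least 2, 1.97% at least 3 and 0.518% at least 4. Windows were found for 6 of the 8 genes, and those of Mtf1, Slc39a1 and Slc39a10 held none of these letters. A match is a stretch of letters and not a shown binding site, and none of these libraries measured binding.

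Mt1 rose steeply after 3 h of LPS in both genotypes, was back at or below the unstimulated level at 24 h, and rose again on the second dose. In WT BMDMs it stood at 98.7, 133 and 134 CPM in Unstim. cells and at 1221, 925 and 886 CPM in LPS 3h cells. The WT LPS 24h cultures held 148, 115 and 59.7 CPM and the WT LPS 24h->LPS 3h cultures 1085, 1274 and 663 CPM. The 2 groups that ended with 3 h of LPS overlapped each other and lay wholly above the other 2, which also overlapped. In Irg1-/- BMDMs the levels were 186, 219 and 132 CPM in Unstim. cells, 1072, 837 and 799 CPM in LPS 3h cells, 50.2, 64.8 and 34.0 CPM in LPS 24h cells and 572, 465 and 289 CPM in LPS 24h->LPS 3h cells. None of these 4 groups overlapped another, and the order ran from LPS 3h through LPS 24h->LPS 3h and Unstim. down to LPS 24h.

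As log2 fold changes with their standard errors, Mt1 rose by 3.05 ± 0.36 in WT and by 2.33 ± 0.35 in Irg1-/- BMDMs at LPS 3h against Unstim., with group means of 1011 ± 183 against 122 ± 20.1 CPM in WT (SD, n = 3). At LPS 24h against Unstim., WT cells differed by -0.18 ± 0.33, which did not pass the threshold, whereas Irg1-/- cells fell by 1.85 ± 0.34 on the log2 scale. The second dose raised Mt1 by 3.23 ± 0.36 in WT and by 3.15 ± 0.36 in Irg1-/- cells over LPS 24h. Against LPS 3h, the tolerized WT cells came back to the same mean, 1008 ± 313 CPM, with a log2 difference of -0.00 ± 0.33 and a 95% interval of -0.68 to 0.67, and the tolerized Irg1-/- cells stayed lower by 1.03 ± 0.33 on the log2 scale. That Irg1-/- difference lost its call with the library pool as a term (-1.23), without Irg1-/- LPS 3h replicate 1 (-0.92) and without Irg1-/- LPS 24h->LPS 3h replicate 3 (-0.82).

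Mt2 moved over a wider range than Mt1. It was near the bottom of its range in Unstim. cells, at 10.4, 11.2 and 15.5 CPM in WT and 27.4, 29.0 and 21.4 CPM in Irg1-/- BMDMs. LPS 3h cultures reached 1657, 1668 and 1482 CPM in WT and 1525, 1279 and 1328 CPM in Irg1-/-. Every LPS 3h library lay above every library of the other 3 treatments. At LPS 24h Mt2 was at 62.1, 39.7 and 10.9 CPM in WT and at 23.4, 13.5 and 8.03 CPM in Irg1-/- cells. After the second dose it was at 780, 825 and 312 CPM in WT and at 259, 215 and 158 CPM in Irg1-/- cells. Tolerized cells of each genotype thus sat between their own LPS 24h and LPS 3h groups with no overlap on either side, and the lowest WT value of both 24 h treatments was that of replicate 3.

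The log2 fold change of Mt2 at LPS 3h against Unstim. was 7.02 ± 0.53 in WT and 5.74 ± 0.50 in Irg1-/- cells, the largest of any of the 8 genes in both genotypes. At LPS 24h it was 1.60 ± 0.43 in WT, past the threshold although the groups overlapped, and -0.79 ± 0.42 in Irg1-/- cells, not past it. The Irg1-/- fall did pass with the library pool as a term. The WT value rested on few libraries: it was 1.45 without WT Unstim. replicate 1, 1.01 without WT LPS 24h replicate 1 and 0.61 with the library pool as a term, none of them past the threshold, and within pool 4 it was -0.16. Restimulation raised Mt2 by 4.09 ± 0.46 in WT and by 3.82 ± 0.46 in Irg1-/- cells. Unlike Mt1, it did not come back to the LPS 3h level in tolerized WT cells, which fell short by 1.33 ± 0.42 on the log2 scale (1.06 and no longer past the threshold without WT LPS 24h->LPS 3h replicate 3), and tolerized Irg1-/- cells fell short by 2.71 ± 0.44.

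**Figure D1:**
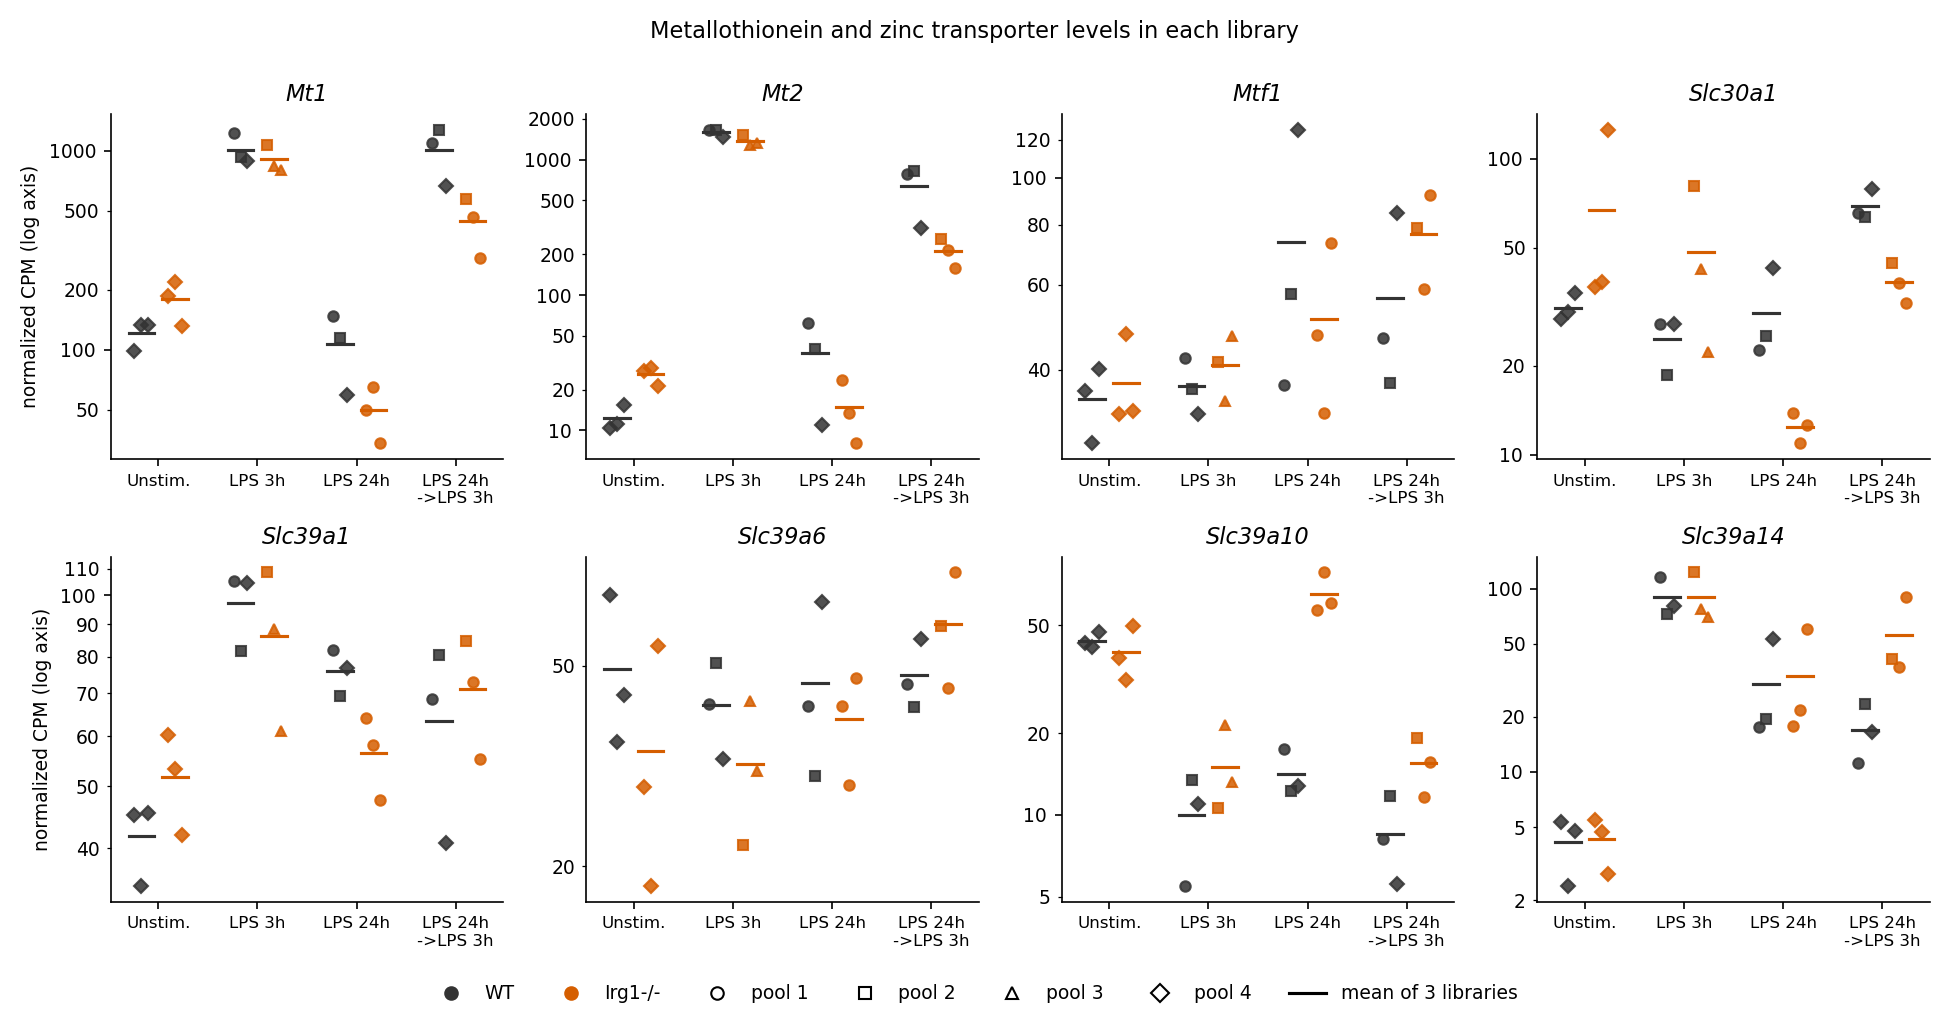
Normalised CPM of the 8 genes (log axis) by treatment, with WT in black, Irg1-/- in orange, 1 point per library shaped by its pool and a bar at the mean of 3 libraries. Mt2 peaks at LPS 3h in both genotypes and Mt1 in Irg1-/- cells, while WT Mt1 is as high in tolerized cells. Slc39a14 reaches 69.6 to 123 CPM at LPS 3h, and the 3 Irg1-/- LPS 24h points of Slc39a10 at 56.8 to 78.4 CPM stand above all other groups.

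The balance of the metallothioneins also moved. Mt1 drew 8.62 to 11.9 reads per Mt2 read in WT Unstim. libraries (median 9.52) and 6.2 to 7.56 in Irg1-/- Unstim. libraries (median 6.8). At LPS 3h the ratio spanned 0.555 to 0.737 in WT with a median of 0.598, and 0.601 to 0.703 in Irg1-/- with a median of 0.654, so all 6 libraries had more reads on Mt2 than on Mt1. At LPS 24h WT libraries spanned 2.38 to 5.48 with a median of 2.89, and Irg1-/- libraries 2.15 to 4.79 with a median of 4.24. After the second dose the medians were 1.55 (1.39 to 2.13) in WT and 2.16 (1.83 to 2.21) in Irg1-/- cells. In each genotype the 4 treatments lined up from Unstim. through LPS 24h and LPS 24h->LPS 3h to LPS 3h without overlap, apart from Irg1-/- LPS 24h and LPS 24h->LPS 3h, whose ranges met. The absolute ratio depends on how each transcript is captured and read, so only its shift between groups is described.

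**Figure D2:**
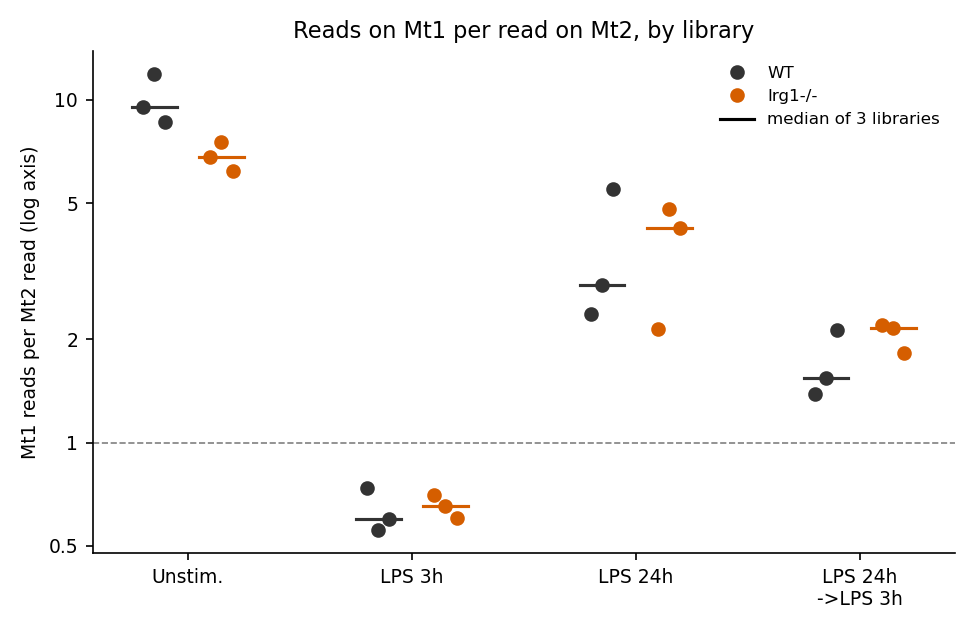
Reads on Mt1 per read on Mt2 (log axis) in each library by treatment, with WT in black, Irg1-/- in orange, a bar at the median of 3 libraries and a dashed line at equal reads. The 6 LPS 3h libraries lie below the line at 0.555 to 0.737, and the Unstim. libraries at 6.2 to 11.9.

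Mtf1 (ENSMUSG00000028890.13, chromosome 4, 124802104 to 124849800, plus strand), the zinc-sensing activator of the genes above, moved far less than they did. It ranged from 28.2 to 40.1 CPM in WT Unstim., 32.5 to 42.3 in WT LPS 3h, 37.1 to 126 in WT LPS 24h and 37.5 to 84.7 CPM in WT LPS 24h->LPS 3h cells. The Irg1-/- groups covered 32.4 to 47.5, 34.5 to 47.0, 32.6 to 73.1 and 58.9 to 92.0 CPM in the same order. At LPS 3h against Unstim. the log2 difference was 0.09 ± 0.37 in WT (95% interval -0.66 to 0.84) and 0.13 ± 0.37 in Irg1-/- cells, neither past the threshold.

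Mtf1 rose in WT LPS 24h cells by 1.08 ± 0.37 over Unstim. and by 0.99 ± 0.37 over LPS 3h. Those calls leaned most on WT LPS 24h replicate 3 (126 CPM), the library with the lowest macrophage marker sum. Without it they were 0.39 and 0.26 and not past the threshold. Both were also lost with DESeq2 size factors, with a replicate block nested in genotype and with only the compared groups fitted. The call over Unstim. was lost without any single WT Unstim. library. The call over LPS 3h was lost without any single WT LPS 3h library or WT LPS 24h replicate 2. It was also lost with the library pool as a term and in the DESeq2 Wald test. The groups overlapped in both comparisons, the antisense gene 1110065P20Rik (1 to 152 reads) overlaps Mtf1, and strand use in the counting was not stated. Between tolerized and LPS 3h Irg1-/- cells Mtf1 was higher by 0.90 ± 0.37 without overlap, not past the threshold, and it passed without the filter on low counts, with either replicate block and with only the compared groups fitted (0.87 to 0.91).

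Slc30a1 (ENSMUSG00000037434.7, chromosome 1, 191906767 to 191913247, plus strand), the zinc exporter regulated by MTF1, did not follow the metallothioneins in the first LPS response. WT BMDMs held 28.7, 30.4 and 35.1 CPM in Unstim. and 27.7, 18.6 and 27.7 CPM in LPS 3h cells. Levels were 22.6, 25.1 and 42.9 CPM at LPS 24h and 65.6, 63.4 and 79.0 CPM in LPS 24h->LPS 3h cells. The tolerized WT cultures lay above all other WT cultures, and the other 3 WT groups were close to one another. In Irg1-/- BMDMs it was at 36.8, 38.5 and 125 CPM in Unstim. and 80.5, 42.4 and 22.2 CPM in LPS 3h cells. It was at 13.8, 10.9 and 12.6 CPM in LPS 24h cells and at 44.3, 38 and 32.5 CPM in LPS 24h->LPS 3h cells. The Irg1-/- LPS 24h group was the lowest of the 8 and overlapped no other, and the Irg1-/- Unstim. and LPS 3h groups were spread widely by single cultures.

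At LPS 3h against Unstim., Slc30a1 differed by -0.35 ± 0.40 in WT, where the groups did not overlap, and by -0.47 ± 0.40 in Irg1-/- cells, and neither passed the threshold. In tolerized WT cells it rose by 1.49 ± 0.41 over LPS 3h, 1.24 to 1.76 within the 3 pools, and this was 1.28 and not past the threshold without WT LPS 3h replicate 2. Over LPS 24h it was higher by 1.20 ± 0.40, not past the threshold, without overlap. In Irg1-/- cells it fell by 2.43 ± 0.42 on the log2 scale at LPS 24h against Unstim., a change that was between -2.75 and -1.57 as single cultures were left out and smallest without Irg1-/- Unstim. replicate 3. It rose again by 1.62 ± 0.41 on the second dose, a call lost without Irg1-/- LPS 24h replicate 2 (1.57) or Irg1-/- LPS 24h->LPS 3h replicate 1 (1.54).

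Slc39a14 (ENSMUSG00000022094.15, chromosome 14, 70303469 to 70351425, minus strand), which encodes the importer ZIP14, showed the largest rise of the 4 importers. It was at 5.35, 2.39 and 4.78 CPM in WT Unstim. and 116, 72.4 and 80.4 CPM in WT LPS 3h cells. Irg1-/- cells held 5.45, 4.71 and 2.78 CPM in Unstim. and 123, 77.0 and 69.6 CPM in LPS 3h cells. The genotypes overlapped at both treatments, and every LPS library of either genotype was above every Unstim. library. WT LPS 24h cultures were at 17.7, 19.5 and 53.2 CPM and Irg1-/- LPS 24h cultures at 17.8, 21.7 and 60.6 CPM, with the high value in replicate 3 of each. Tolerized cells were at 11.2, 23.4 and 16.5 CPM in WT and at 41.1, 37.3 and 89.9 CPM in Irg1-/-. Those 2 groups did not overlap, and the Irg1-/- one reached into the LPS 3h range.

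The log2 fold change of Slc39a14 at LPS 3h against Unstim. was 4.41 ± 0.52 in WT and 4.42 ± 0.53 in Irg1-/- cells, and at LPS 24h it was 2.83 ± 0.49 and 2.99 ± 0.51. Between 3 h and 24 h it fell by 1.57 ± 0.46 in WT and by 1.43 ± 0.46 in Irg1-/- cells on the log2 scale. The WT call was lost without WT LPS 24h replicate 1 or 2 (-1.34 and -1.38), and the Irg1-/- call without Irg1-/- LPS 3h replicate 1, LPS 24h replicate 1 or LPS 24h replicate 2 (-1.19, -1.13 and -1.24) and with the pool as a term (-1.97). The second dose did not raise it past the threshold, with -0.82 ± 0.46 in WT and 0.75 ± 0.45 in Irg1-/- cells. Tolerized WT cells fell short of LPS 3h by 2.39 ± 0.47 on the log2 scale, and tolerized Irg1-/- cells differed by -0.68 ± 0.45, not past the threshold.

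Slc39a10 (ENSMUSG00000025986.6, chromosome 1, 46807544 to 46892852, minus strand), which encodes the importer ZIP10, went the other way. It was at 42.9, 41.7 and 47.1 CPM in WT Unstim., 5.47, 13.5 and 11 CPM in LPS 3h, 17.5, 12.2 and 12.8 CPM in LPS 24h and 8.19, 11.8 and 5.57 CPM in LPS 24h->LPS 3h cells. All 9 WT libraries that received LPS were under all 3 that did not. Irg1-/- cells held 38, 31.5 and 49.7 CPM in Unstim., 10.6, 21.4 and 13.2 CPM in LPS 3h, 56.8, 78.4 and 60.7 CPM in LPS 24h and 19.3, 11.7 and 15.6 CPM in LPS 24h->LPS 3h cells. In this genotype the LPS 24h cultures were the highest of all 24 libraries, while both treatments that ended with 3 h of LPS were low as in WT.

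Against Unstim., Slc39a10 fell by 2.12 ± 0.36 in WT and by 1.41 ± 0.35 in Irg1-/- cells at LPS 3h on the log2 scale. At LPS 24h it fell by 1.63 ± 0.35 in WT but was 0.71 ± 0.34 higher in Irg1-/- cells, the latter not past the threshold although the groups did not overlap. From 3 h to 24 h it rose by 2.12 ± 0.35 in Irg1-/- cells and differed by 0.49 ± 0.35 in WT. The second dose lowered it by 2.07 ± 0.35 in Irg1-/- cells, -2.24 within pool 1, and the WT difference of -0.74 ± 0.35 did not pass the threshold. Tolerized cells differed from LPS 3h cells by -0.24 in WT and 0.05 in Irg1-/- BMDMs.

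Slc39a1 (ENSMUSG00000052310.9, chromosome 3, 90248172 to 90253612, plus strand), which encodes the plasma membrane importer ZIP1, rose modestly. WT levels were 34.8 to 45.4 CPM in Unstim., 81.8 to 105 in LPS 3h, 69.3 to 82.1 in LPS 24h and 40.7 to 80.6 CPM in LPS 24h->LPS 3h cells. Irg1-/- levels were 42.0 to 60.2, 61.2 to 109, 47.5 to 64.0 and 55.3 to 84.7 CPM. At LPS 3h it rose by 1.22 ± 0.29 in WT and by 0.74 ± 0.29 in Irg1-/- cells, and at LPS 24h by 0.86 ± 0.29 in WT. The WT rise at LPS 24h lost its call when any 1 of the 6 libraries was left out (0.73 to 0.90). The Irg1-/- rise at LPS 3h lost it without any of 4 libraries, Unstim. replicate 2 or 3 or LPS 3h replicate 1 or 2 (0.59 to 0.82). Both of these calls were also lost without the filter on low counts, with the library pool as a term and with only the compared groups fitted.

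Slc39a6 (ENSMUSG00000024270.11, chromosome 18, 24579881 to 24603817, minus strand), which encodes the importer ZIP6, showed no difference past the threshold in any of the 17 comparisons as fitted on all groups. It ranged from 30.2 to 68.9 CPM over the 12 WT libraries and from 18.3 to 76.5 CPM over the 12 Irg1-/- libraries, and most groups overlapped one another. The largest difference was 0.93 ± 0.37 between tolerized and LPS 3h Irg1-/- cells, whose ranges did not overlap, and it passed without the filter on low counts (0.94) and with only the compared groups fitted (0.89). The antisense gene Elp2 (49 to 457 reads) overlaps it, and strand use in the counting was not stated.

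**Figure D3:**
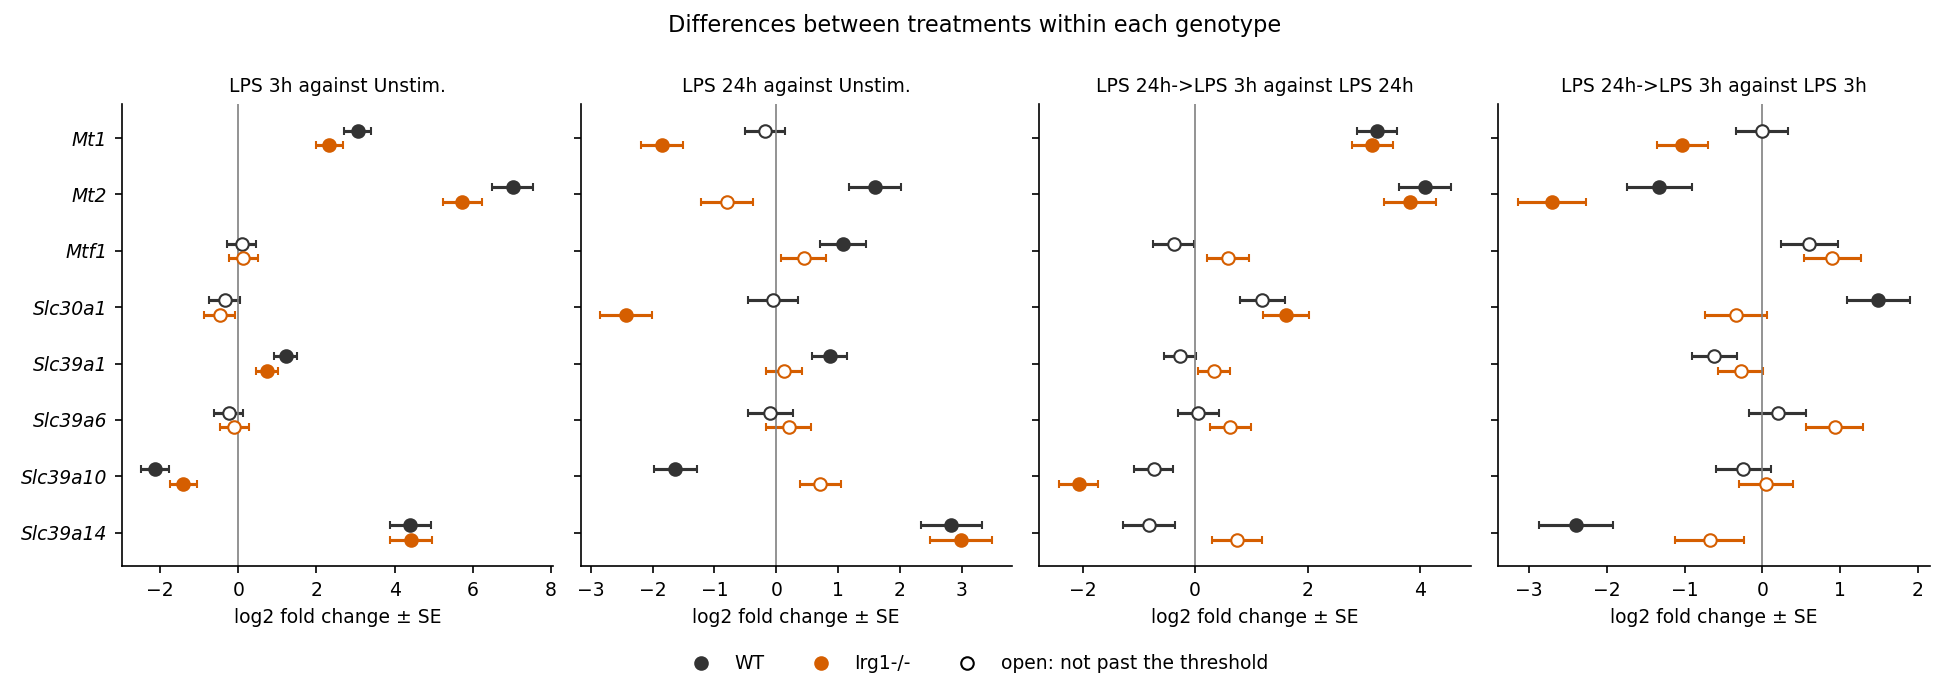
Log2 fold changes (± SE) of the 8 genes between treatments, with WT in black, Irg1-/- in orange and open circles for differences not past the threshold (3 libraries per group). Mt1 and Mt2 lie to the right for LPS 3h and for the second dose in both genotypes, and Slc39a10 at LPS 24h lies at -1.63 in WT and 0.71 in Irg1-/-.

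Counted over the 8 genes, LPS 3h against Unstim. moved 5 past the threshold in each genotype, where 32.0% of all tested genes passed in WT and 35.9% in Irg1-/- cells. They were Mt1, Mt2, Slc39a1 and Slc39a14, higher, and Slc39a10, lower, in both. LPS 24h against Unstim. moved 5 in WT (16.2% of all genes), namely Mt2, Mtf1, Slc39a1 and Slc39a14, higher, and Slc39a10, lower. In Irg1-/- cells it moved 3 (13.7%), namely Slc39a14, higher, and Mt1 and Slc30a1, lower. LPS 24h against LPS 3h moved 4 in WT (32.3%) and 5 in Irg1-/- cells (35.0%), with Mt1, Mt2 and Slc39a14 lower in both, Mtf1 higher in WT, and Slc30a1 lower and Slc39a10 higher in Irg1-/-. The second dose over LPS 24h moved 2 in WT (3.99%), Mt1 and Mt2, and 4 in Irg1-/- cells (5.14%), where Slc30a1 was also higher and Slc39a10 lower. Tolerized against LPS 3h cells differed in 3 genes in WT (25.5%), with Slc30a1 higher and Mt2 and Slc39a14 lower, and in 2 in Irg1-/- cells (27.2%), Mt1 and Mt2, both lower. Since the genes were chosen with these contrasts known, nothing is read from the shares, and comparisons that share a group of libraries are not independent. The median log2 difference of the 8 genes at LPS 3h against Unstim. was 0.65 in WT and 0.43 in Irg1-/- cells, beside -0.18 and -0.20 over all tested genes.

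Between the genotypes within a treatment, only Slc39a10 at LPS 24h passed the threshold among the 8 genes, and the treatments are taken in turn. In Unstim. cells 0 of the 8 passed the threshold (0.0421% of all genes) and 2 had an unadjusted p under 0.05 (5.20%), with 0 passing in DESeq2 (0.292%). Mt2 was higher in Irg1-/- Unstim. cells by 1.06 ± 0.42, at 25.9 ± 4.05 against 12.3 ± 2.76 CPM (SD, n = 3), and Slc30a1 by 1.10 ± 0.40, and these were the 2 genes whose groups did not overlap (9.44% of all genes). The Slc30a1 difference fell to 0.26 without Irg1-/- Unstim. replicate 3. In LPS 3h cells 0 of the 8 passed (0.00842%), 0 did not overlap (9.08%), 1 had an unadjusted p under 0.05 (5.84%) and 0 passed in DESeq2 (0.0730%). The 1 gene was Slc30a1, higher by 0.98 ± 0.40 in Irg1-/- cells and by 0.40 without Irg1-/- LPS 3h replicate 1. Pool 2 held that library and 1 WT library, 80.5 against 18.6 CPM, a log2 difference of 2.10. Mt1 and Mt2 differed by -0.16 ± 0.33 and -0.22 ± 0.41.

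In LPS 24h cells 1 of the 8 passed the threshold (0.598% of all genes), 4 had an unadjusted p under 0.05 (10.1%), and 2, Slc39a10 and Mt1, passed in DESeq2 (1.82%). The 1 was Slc39a10, 2.20 ± 0.35 higher in Irg1-/- BMDMs, at 65.3 ± 11.5 against 14.2 ± 2.91 CPM (SD, n = 3), and 1.87 higher within pool 1, with 1 WT library. The call was lost with a replicate block nested in genotype (2.19). Groups did not overlap for 3 of the 8 (16.5%), which were Slc39a10, Slc30a1 and Slc39a1. Slc30a1 differed by -1.28 ± 0.41 in all libraries, past the threshold without the filter on low counts (-1.27), and by -0.86 within pool 1, and Slc39a1 by -0.43 ± 0.29. Mt1 and Mt2 were at lower means in Irg1-/- LPS 24h cells, 49.7 ± 15.4 against 107 ± 44.5 and 15.0 ± 7.79 against 37.6 ± 25.7 CPM, with differences of -1.11 ± 0.33 and -1.33 ± 0.42 that did not pass the threshold and groups that overlapped. Mt2 passed without the filter on low counts (-1.32) and was at -0.77 without WT LPS 24h replicate 1. Within pool 1 the differences were -1.62 and -2.17, each with 3 Irg1-/- libraries against 1 WT library.

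In tolerized cells 0 of the 8 passed the threshold (0.118% of all genes), 5 had an unadjusted p under 0.05 (7.88%), and 3, Mt1, Mt2 and Slc39a14, passed in DESeq2 (0.867%). Groups did not overlap for 4 of the 8 (12.9%). Mt1 was lower in Irg1-/- cells by -1.19 ± 0.33 on the log2 scale (-1.56 within pool 1, 2 libraries against 1, and -1.16 within pool 2, 1 against 1) and Mt2 by -1.60 ± 0.42 (-2.08 and -1.67), at 211 ± 50.5 against 639 ± 284 CPM (SD, n = 3). Slc30a1 was at -0.86 ± 0.40 (-0.90 and -0.52). Slc39a14 was higher by 1.72 ± 0.46 (2.36 and 0.81), at 56.1 ± 29.3 against 17 ± 6.12 CPM, and the fifth gene, Slc39a10, was higher by 0.87 ± 0.35 with groups that just met.

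Whether the response itself differed between genotypes was asked with the interaction of genotype and treatment. For LPS 3h against Unstim., 0 of the 8 passed (0.00842% of all genes), 1 had an unadjusted p under 0.05 (5.68%), and 0 passed in DESeq2 (0.0337%). That 1 was Mt2, whose rise was smaller in Irg1-/- cells by 1.28 ± 0.59 (interaction -1.28, 95% interval -2.48 to -0.08). Irg1-/- cells differed from WT in Mt2 by 1.06 ± 0.42 at Unstim. and by -0.22 ± 0.41 at LPS 3h, so most of this lay in the Unstim. levels. For LPS 24h against Unstim., 1 passed (0.210%), 4 had an unadjusted p under 0.05 (8.14%) and 4 passed in DESeq2 (0.848%). The 1 was Slc39a10 with an interaction of 2.34 ± 0.48 (95% interval 1.36 to 3.33), a call that was lost without any 1 of 6 libraries. Mt1, Mt2 and Slc30a1 had interactions of -1.67 ± 0.47, -2.39 ± 0.60 and -2.38 ± 0.57 there, not past the threshold but past it in DESeq2 (-1.69, -2.41 and -2.41). Mt2 also passed without the filter, with the pool term and without WT LPS 24h replicate 3, and Slc30a1 without the filter, without WT LPS 24h replicate 1 and without Irg1-/- Unstim. replicate 1. The Mt1 and Mt2 values include the genotype differences in Unstim. cells, 0.56 ± 0.33 and 1.06 ± 0.42. The Slc30a1 value includes the Irg1-/- Unstim. replicate 3 culture at 125 CPM, and was -1.51 without it. For the second dose over LPS 24h, 0 of the 8 passed (0.00842%), 2 had an unadjusted p under 0.05 (8.66%), and 0 passed in DESeq2 (0.546%). They were Slc39a10 at -1.34 ± 0.49 and Slc39a14 at 1.57 ± 0.64, while Mt1 and Mt2 were at -0.08 ± 0.47 (95% interval -1.03 to 0.88) and -0.27 ± 0.58 (-1.47 to 0.92).

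**Figure D4:**
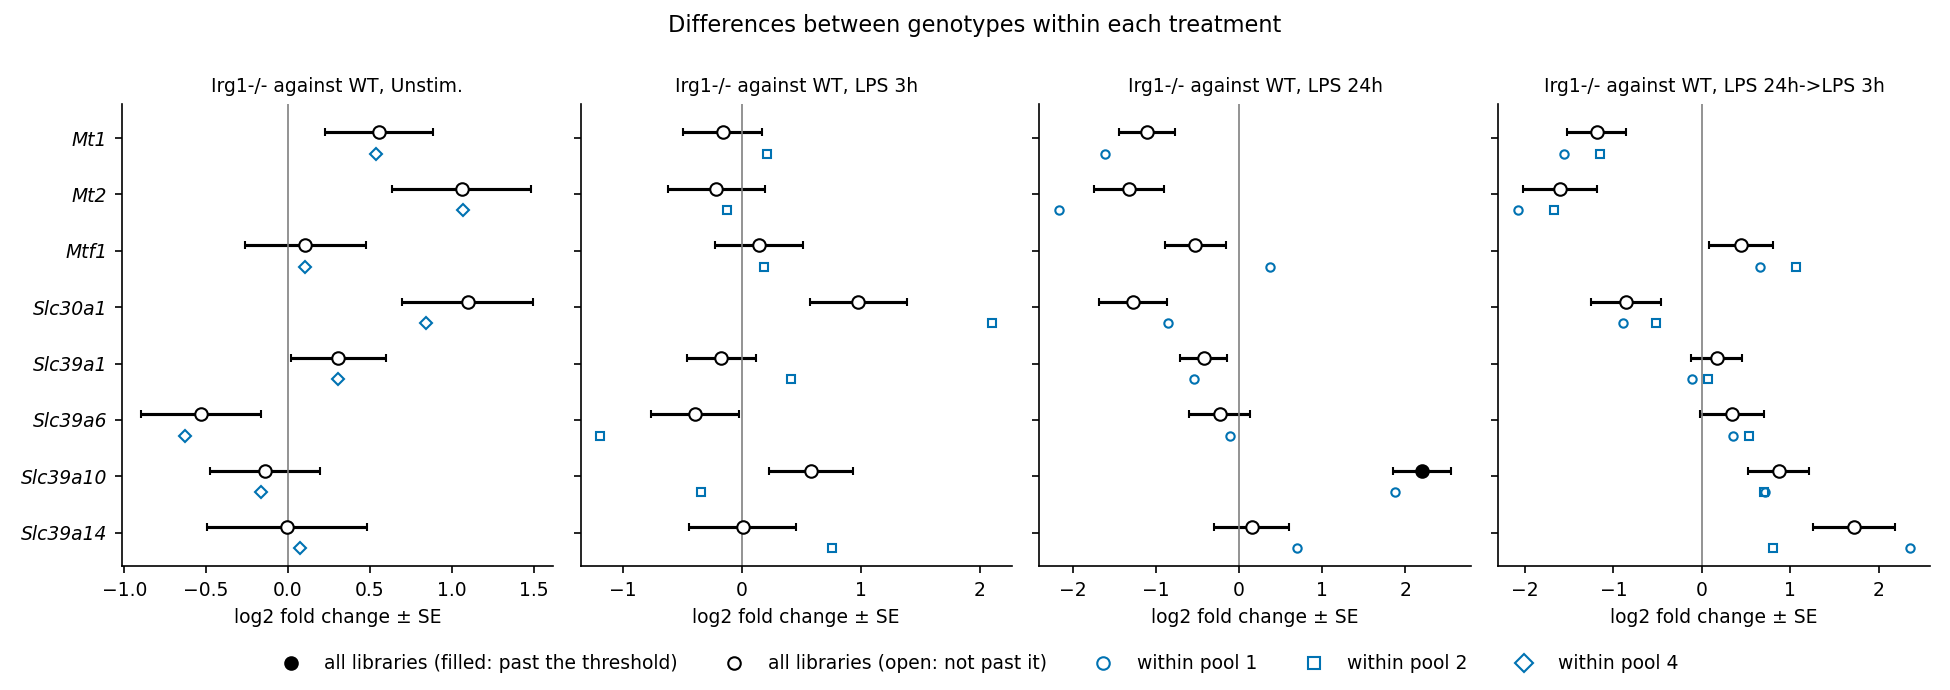
Log2 fold changes (± SE) of the 8 genes between Irg1-/- and WT cells at each treatment, with black circles for all libraries (filled past the threshold) and blue marks for the difference within 1 pool. Slc39a10 at LPS 24h is the one filled circle, at 2.20, and in tolerized cells Mt1 and Mt2 lie left of 0 in both pools.

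The rest of the zinc and copper machinery was followed with lists of other exporters (5 of 9 genes tested), other importers (7 of 10), the metallothioneins Mt3 and Mt4 (0 of 2, with at most 5 counts) and copper handling (9 of 10). These lists were also chosen with earlier results of these data known, so the adjusted p-values printed for their genes are a description and not independent tests. None of the listed genes passed the threshold between genotypes or in an interaction. Among exporters at LPS 3h against Unstim., 3 of 5 passed in each genotype, beside 32.0% of all genes in WT and 35.9% in Irg1-/- cells. Slc30a4, which loads zinc into endosomal vesicles, rose by 1.57 ± 0.43 in WT (adjusted p = 0.00497) and by 3.67 ± 0.47 in Irg1-/- cells (adjusted p = 1.97e-07), reaching 45.8 ± 4.89 and 102 ± 74.2 CPM. Slc30a6, a Golgi exporter, rose by 1.81 ± 0.39 (adjusted p = 0.000478) and 1.43 ± 0.39 (adjusted p = 0.00498), the latter call lost with the pool as a term (1.06). Slc30a5, which supplies zinc to the secretory pathway, fell by 1.04 ± 0.31 (adjusted p = 0.0107) and 0.98 ± 0.32 (adjusted p = 0.0156), the latter call lost in 7 of 13 other settings.

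Tolerized against LPS 3h cells differed in 2 of 5 exporters in WT (25.5% of all genes) and in 1 of 5 in Irg1-/- cells (27.2%), all lower. Slc30a4 was low again, with log2 differences from LPS 3h of -3.26 and -4.42 in tolerized WT and Irg1-/- cells. Slc30a7, another exporter of the secretory pathway, differed by -1.30 in WT, a call lost in 0 of 13 settings. At LPS 24h against Unstim. 0 of 5 exporters passed in WT (16.2% of all genes) and 1 in Irg1-/- cells (13.7%), Slc30a4 at -1.45 ± 0.45 (adjusted p = 0.0282), a call lost in 6 of 13 settings. On the second dose Slc30a7 fell by 1.17 ± 0.32 in WT (adjusted p = 0.0314, beside 3.99% of all genes called). That call was lost without WT LPS 24h replicate 3 or WT LPS 24h->LPS 3h replicate 3, or with only the compared groups fitted. In Irg1-/- cells 0 exporters passed (5.14%). Median differences of the 5 exporters at LPS 3h were 0.77 in WT and 0.84 in Irg1-/- cells, beside -0.18 and -0.20 over all genes.

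Of the 7 other importers, 1 passed at LPS 3h in each genotype, beside 32.0% and 35.9% of all genes. It was Slc39a13, an importer of the secretory pathway, in WT (0.94 ± 0.31, adjusted p = 0.0206, lost without any of 3 libraries, WT Unstim. replicate 2 or 3 or WT LPS 3h replicate 1). In Irg1-/- cells it was Slc39a9, at -1.22 ± 0.38 (adjusted p = 0.0132, lost in 5 of 13 settings). At LPS 24h Slc39a13 rose by 1.53 ± 0.32 in WT (adjusted p = 0.000599) and by 1.19 ± 0.31 in Irg1-/- cells (adjusted p = 0.00786), the only one to pass in WT (16.2% of all genes), and 1 of 3 in Irg1-/- cells (13.7%). In Irg1-/- cells Slc39a7, which releases zinc from the endoplasmic reticulum, also rose by 1.75 ± 0.37 (adjusted p = 0.000901), and Slc39a4 rose by 3.14 ± 0.95 (adjusted p = 0.0232) from 0.553 ± 0.958 to 6.21 ± 2.78 CPM, lost in 7 of 13 settings. With the pool as a term, none of these 3 Irg1-/- calls at LPS 24h held. On the second dose 0 of 7 passed in either genotype (3.99% and 5.14%). Medians of the 7 were -0.24 in both genotypes at LPS 3h and 0.30 and 0.52 at LPS 24h, beside -0.18, -0.20, 0.00 and -0.00 over all genes.

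Tolerized against LPS 3h cells differed in 3 of the 7 importers in WT (25.5% of all genes), Slc39a7 and Slc39a9 higher and Slc39a8 lower, and in 6 of 7 in Irg1-/- cells (27.2%), Slc39a3, Slc39a4, Slc39a7, Slc39a9 and Slc39a13 higher and Slc39a8 lower. All 6 Irg1-/- calls were lost with the pool as a term, and those of Slc39a3, Slc39a9, Slc39a4 and Slc39a7 in 7, 6, 5 and 3 of 13 settings. In WT the Slc39a9 call was lost in 9 of 13 settings and the Slc39a7 call in 3. Slc39a8, which encodes the inflammation-linked importer ZIP8, stood at 5.49 ± 2.02 CPM in WT LPS 3h and 1.12 ± 1.08 CPM in tolerized WT cells, a log2 difference of -2.30 ± 0.70 (adjusted p = 0.0154), and differed by -2.63 ± 0.70 in Irg1-/- cells (adjusted p = 0.00521). The WT call was lost without WT LPS 3h replicate 3 or WT LPS 24h->LPS 3h replicate 3, or with only the compared groups fitted.

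Of the 9 copper genes tested, 5 passed at LPS 3h in each genotype (32.0% of all genes in WT and 35.9% in Irg1-/-), and they were the same genes. Slc31a1, the plasma membrane copper importer, rose by 1.99 ± 0.32 in WT (adjusted p = 8.59e-06) and by 1.79 ± 0.32 in Irg1-/- cells (adjusted p = 3.98e-05). Slc31a2, its vesicular relative, rose by 2.79 ± 0.42 (adjusted p = 2.77e-06) and 2.33 ± 0.41 (adjusted p = 3.81e-05). Cox17 and Sco1, which deliver copper to cytochrome c oxidase, rose by 1.21 and 1.38 in WT (adjusted p = 0.0207 and 0.0212) and by 1.72 and 1.89 in Irg1-/- cells (adjusted p = 0.00161 and 0.00185), and their relative Sco2 fell by 1.94 and 2.65 on the log2 scale (adjusted p = 0.0121 and 0.00106). The WT calls of Cox17, Sco1 and Sco2 were each lost without at least 1 single library, and the Irg1-/- calls of Slc31a2, Cox17 and Sco2 with the pool as a term. At LPS 24h 2 of 9 passed in each genotype, Slc31a1 (1.88 and 2.00) and Slc31a2 (2.32 and 2.46), beside 16.2% and 13.7% of all genes, and the Irg1-/- call of Slc31a2 was lost with the pool as a term (1.27). On the second dose 0 of 9 passed (3.99% and 5.14%). Medians of the 9 were 0.54 and 0.30 at LPS 3h and 0.30 and 0.04 at LPS 24h in WT and Irg1-/- cells, beside -0.18, -0.20, 0.00 and -0.00 over all genes. Slc39a9, Slc39a13, Slc31a1 and Sco2 each overlap an antisense gene with reads of its own.

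The genes whose levels ran most like each of the 8 were ranked by Pearson's r of log2 CPM over the 24 libraries, which share treatments, pools and depth. Mt1 ran closest to Mt2 (r = 0.947), then Actg1 (0.924) and Spryd7 (0.923). Mt2 ran closest to Spryd7 (0.974) and to the chemokine genes Ccl4 (0.968) and Ccl3 (0.967), ahead of Mt1. Slc39a14 ran with Ppp1r15b (0.942), Hif1a (0.933), which encodes the oxygen-regulated transcription factor subunit, and Fhl3 (0.932). Slc39a10 ran with Ssh2 (0.884), Arhgap45 (0.832) and Pdcd4 (0.82), Mtf1 with Zranb1 (0.892), Selenos (0.868) and Ube2q1 (0.851), and Slc39a1 with Map2k1 (0.891), Gnl1 (0.878) and Eef1e1 (0.872). The best values were lower for Slc30a1, with Nabp1 (0.719), Setd3 (0.699) and Tpm1 (0.675), and for Slc39a6, with Cdc5l (0.735), Eprs (0.71) and 2210016L21Rik (0.675). Among the 8 themselves, Slc39a10 ran against Mt1 (-0.76) and Mt2 (-0.764), Slc39a1 ran with Slc39a14 (0.727), and Slc30a1 had r = 0.451 with Mt1 and 0.264 with Mt2.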

How the data were processed

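RNA of 24 libraries was sequenced from the 3' end after oligo-dT barcoding. The authors deposited a table of counts, whole reads per gene, which they made by aligning reads to mm10 with STAR (version not given in the sources used here). The counting program, annotation and use of strand are not given in the sources used here, and reads carried no molecular identifiers, so a count is not a count of molecules. The 5 summary lines of unassigned reads were left out, and 48.03 to 59.39% of each column total fell on genes. Symbols came from GENCODE M21 and matched 21745 of 22165 genes.

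Counts were fitted with edgeR 4.0.16 (limma 3.58.1, R 4.3.3), with TMM scaling, filterByExpr, 1 term for each of the 8 groups and quasi-likelihood F tests in 17 comparisons. P-values were adjusted by Benjamini-Hochberg over 11878 genes at 0.05, SE was the log2 fold change divided by the square root of F, and log2 CPM used a prior count of 2. DESeq2 1.42.0 was an alternative, as were DESeq2 size factors, no filter, a replicate block, a library pool term, fits on the compared groups only and leaving out each library. Scripts were tested on simulated data. Libraries that share a prefix in their labels were called a pool, although what the prefix marks is not stated in the sources used here. The 8 genes, the lists of zinc and copper genes and the markers were chosen with earlier results of these data known. The text names the 8 genes, Acod1, list genes past the threshold in a comparison it describes and the 3 genes that correlated best with each of the 8. The methods state that cultures were independent, not how many mice they came from, so p-values measure the spread between cultures. Within-group pairs of libraries (24) differed beyond sampling noise (lowest chi-square per degree of freedom 27.8) with r of 0.902 to 0.975. Promoter windows came from RefSeq (GRCm38.p6), and figures were drawn with matplotlib 3.10.9.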

Additional observations from a re-analysis of the deposited data

Results flagged for a closer look

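The response of Slc39a10 to LPS 24h against Unstim. had an interaction with genotype of 2.34 on the log2 scale (SE 0.48). It combined a fall in WT (-1.63) with a higher level in Irg1-/- cells (0.71). Slc39a10 was selected on differences between these same groups, so the value is a description. All 3 Irg1-/- LPS 24h libraries were above all 3 Irg1-/- Unstim. libraries, and all 3 WT LPS 24h libraries were below all 3 WT Unstim. libraries. The call was lost without WT Unstim. replicate 1 (2.40), WT LPS 24h replicate 2 (2.26) or 3 (2.31), Irg1-/- Unstim. replicate 1 (2.32) or 2 (2.22), or Irg1-/- LPS 24h replicate 2 (2.22). For Irg1-/- cells, LPS 24h came from pool 1 and Unstim. from pool 4, so pool and treatment cannot be told apart within that genotype.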

How the results depend on the processing

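Of 40 differences past the threshold, other settings of the whole data gave 280 values, of which 262 stayed past it in the same direction and 18 did not pass, and leaving out single libraries gave 246, of which 208 stayed and 38 did not pass. None reversed. For the 96 differences not past it, 26 of 672 values under other settings and 4 of 714 with a library left out passed, while 25 and 71 changed sign. At LPS 24h against Unstim. in WT, 5 of the 8 genes passed, 3 with the pool as a term, 3 when only the compared groups were fitted and 2 to 4 with a library left out. LPS 24h against LPS 3h in WT gave 4, and 2 to 3 with a library left out. Tolerized against LPS 3h in Irg1-/- cells gave 2, with 4 without the filter, 1 with the pool term, 4 with only the compared groups and 1 to 2 with a library left out. Between genotypes, LPS 24h gave 1, with 3 without the filter and 2 by DESeq2, and LPS 24h->LPS 3h gave 0, with 3 without the filter and 3 by DESeq2. The interaction at LPS 24h gave 1, with 3 without the filter, 2 with the pool term, 4 by DESeq2 and 0 to 2 with a library left out. The cause was not tested. Same-numbered cultures deviated together weakly or not at all (r from -0.102 to 0.337, over 0.1 for all 3 numbers in 0 of 14 comparisons). Replicate 3 reached 0.264 in WT and 0.337 in Irg1-/- cells for the second dose, and 0.287 between genotypes at LPS 24h. All 3 numbers were below 0 for LPS 3h against Unstim. in WT. Every sample correlated best with its own number in 1 of the 14. The numbers were taken to name samples and not to pair them, although number and pool coincide in the WT LPS groups. The replicate block left the count at LPS 24h between genotypes at 1, and nested in genotype it gave 0, losing Slc39a10, with 4 of all genes passing against 71. Over all genes, counts moved by more than 1.5 times for the second dose (from 474 to between 109 and 763 in WT, from 611 to between 370 and 1080 in Irg1-/-), in Irg1-/- cells for LPS 3h against Unstim. (from 4260 to as low as 2361), LPS 24h against LPS 3h (from 4162 to 1771) and tolerized against LPS 3h (from 3233 to 1407), between genotypes at Unstim. (from 5 to between 0 and 39), LPS 3h (from 1 to as high as 32), LPS 24h (from 71 to between 3 and 246) and LPS 24h->LPS 3h (from 14 to between 2 and 133), and for the interactions at LPS 3h (from 1 to 26), LPS 24h (from 25 to between 7 and 112) and the second dose (from 1 to between 0 and 170). Among the 8 genes depth limits Slc39a14 in Unstim. cells most, with as few as 25 reads in a library, and the listed genes Slc39a4 and Slc39a8 were lower still. Slc39a4 went down to 0 CPM in both the Irg1-/- Unstim. and the Irg1-/- LPS 3h group. Its highest Irg1-/- Unstim. library had 31 reads (1.66 CPM). Slc39a8 went down to 0.0808 CPM in a tolerized WT library.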
